A study of Mus musculus with 42 samples.

Results

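A1bg encodes alpha-1-B glycoprotein, a plasma protein of the immunoglobulin superfamily that hepatocytes secrete. It is 1 gene of the 54446 in the count table, of which 15574 had enough counts to be tested. A1bg was chosen by its counts on a Western-type diet (WTD) and on chow, since it was far lower on WTD, and the differences that involve chow are therefore given as a description without a test. Liver RNA was sequenced in 42 female mice transgenic for APOE*3-Leiden, a human apolipoprotein E variant that gives mice a human-like lipoprotein profile, with 1 library per mouse. All mice carried the transgene, and livers were taken after 32 weeks. The chow group, 10 mice on a maintenance diet, served as healthy reference, and the ages of these mice are not stated separately. The WTD group held 16 mice, and the WTD+Atorvastatin group another 16. The WTD-fed mice were 8 to 14 weeks old at the start, and their diet held 15% cocoa butter, 40.5% sucrose and 1% cholesterol, with 0.05% sodium cholate added from week 22. Both WTD groups ate the WTD alone for a run-in of 3 weeks, after which the treated mice received atorvastatin, an inhibitor of HMG-CoA reductase, at 3.0 mg/kg/day and from week 5 at 4.5 mg/kg/day. Mouse numbers carry 1 prefix in the chow group and another in both WTD groups. No batch is given, so that an unlabelled batch shared with the prefix and the diet of the chow group cannot be told apart.

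In rodents the liver is a sexually dimorphic organ. The pituitary secretes growth hormone in an almost continuous pattern in females and in pulses in males, and the hormone's receptor acts through the kinase JAK2 and the transcription factor STAT5b. A set of genes, among them cytochromes P450, sulfotransferases and the prolactin receptor, follows the female pattern. A1bg belongs to the genes with higher expression in female rodent liver, and in the rat its promoter is known to respond to STAT5 and HNF6 (ONECUT1). All mice of the present series were female, and no growth hormone values were analysed here.

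A1bg (ENSMUSG00000022347) lies on the minus strand of chromosome 15 in GRCm38, between 60896859 and 60923012. Of its 2 annotated coding transcripts, the longer spans chr15:60917587-60921266 and has 7 exons with 1536 coding bases. The other spans chr15:60919675-60923012 and has 6 exons with 332 coding bases. The stretch before the start that RefSeq gives is shown because the rat promoter is known to respond to STAT5 and HNF6. In the mouse it lies within the span of the shorter coding transcript. It covers chr15:60921346-60921520 of GRCm38.p6 on the minus strand, is taken from the RefSeq promoter table, and is written 5′ to 3′ with an HNF6 core (ATTGAT) and a STAT5 motif (TTCNNNGAA) in capitals.

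A1bg, upstream: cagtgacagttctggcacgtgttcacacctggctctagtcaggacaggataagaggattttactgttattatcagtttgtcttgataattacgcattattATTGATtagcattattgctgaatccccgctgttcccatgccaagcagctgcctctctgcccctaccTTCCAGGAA

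The HNF6 core began 150 bases and the STAT5 motif 84 bases before the RefSeq start. Motifs were searched on both strands of the 300-base window around the start, and they were chosen with the sequence in view. Of 32851 mouse promoters in the table, 7.54% held ATTGAT and 8.30% held TTCNNNGAA. The window of A1bg also held 1 match to an HNF4A motif (CAAAGTNCA, in 1.41% of promoters) and 1 to a C/EBP motif (TTGCNNAA, in 10.8%), whereas it held no TGTTTAC (FOXA, in 3.65%). None of these motifs overlapped another in A1bg. Of the 25 female-predominant genes described further on, 17 had a promoter in the table, of which 6 held ATTGAT, 3 TTCNNNGAA, 5 CAAAGTNCA, 4 TTGCNNAA and 5 TGTTTAC. The matches describe letters and not binding.

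Similar and overlapping genes had fewer counts than A1bg in total. The transcript most like it was that of the pseudogene Gm7086 on the same chromosome, with 66.6% identity over 746 aligned bases, and Gm7086 had 425 counts in all 42 mice together against 245536 for A1bg. In a single mouse it had at most 75 counts on chow, 96 on WTD and 31 with atorvastatin. The antisense gene 4930402D18Rik shares 395 exonic bases with A1bg and had 2746 counts in all, with at most 112 in a chow-fed, 123 in a WTD-fed and 151 in an atorvastatin-treated mouse. On WTD, A1bg itself had 31 to 1020 counts in a mouse. The libraries were strand-specific, but the strand setting of the counting is not given in the sources used here.

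Between 15661381 and 36224054 counts per mouse fell on genes. Levels are given as CPM, counts scaled to library sizes after TMM normalization, unless TPM (which divides by gene length) is named. In 9 libraries (3 chow, 5 WTD, 1 WTD+Atorvastatin) over 20% of genes at 1 to 2 CPM in their own group had no count at all.

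In chow-fed mice, A1bg was an abundant liver transcript. Its level was 376 CPM in the lowest, 844 CPM in the median and 2265 CPM in the highest of the 10 mice, which corresponds to 7430 to 40141 counts. On WTD the level was 1.16 CPM in the lowest, 12.7 CPM in the median and 43.1 CPM in the highest of the 16 mice, from 31 to 1020 counts. With atorvastatin it was 11.3 CPM in the lowest, 56.9 CPM in the median and 244 CPM in the highest of the 16 mice, from 166 to 6134 counts. No WTD-fed mouse reached the chow range, and the lowest chow-fed mouse was 8.71-fold above the highest WTD-fed mouse. This gap depended on single libraries and was 14.8-fold without chow replicate 5, 14.3-fold without WTD replicate 15 and 25.3-fold without all 9 libraries that missed weak genes. Such a separation, every WTD-fed mouse below every chow-fed mouse, was found for 379 of the 15574 tested genes (2.43%). Atorvastatin-treated mice did not reach the chow range either, and 1.50% of tested genes were separated in this way. Here the gap was 1.54-fold, 2.61-fold without chow replicate 5 and 2.73-fold without the 9 libraries.

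**Figure D1:**
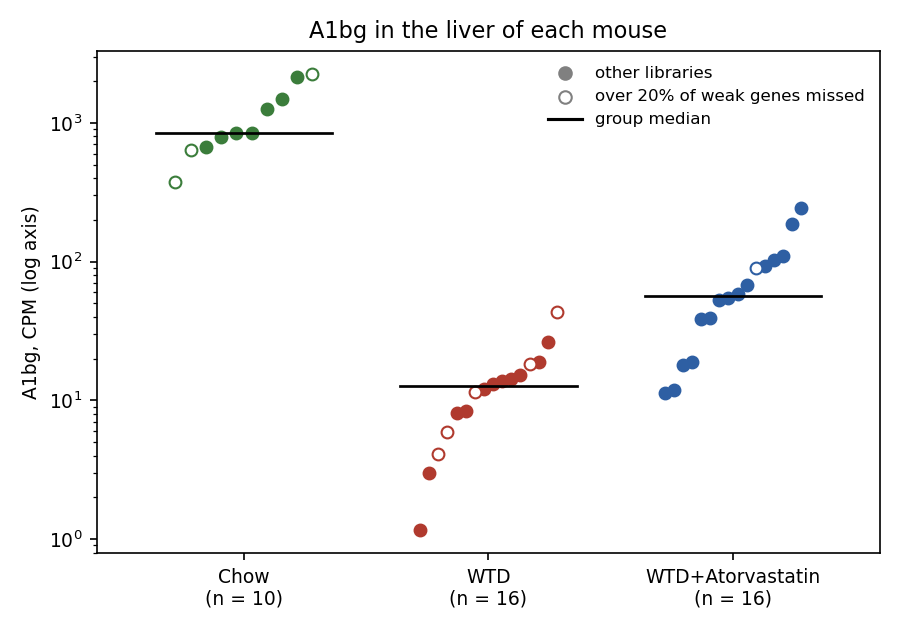
A1bg in the liver of each of the 42 mice, in CPM on a logarithmic axis, by diet group. Each point is a mouse, lines are group medians (844, 12.7 and 56.9 CPM), and open points mark the 9 libraries in which over 20% of weakly expressed genes had no count. The chow group lies above both WTD groups, and the WTD and WTD+Atorvastatin groups overlap.

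The mean level of A1bg was 1134 ± 649 CPM (SD, n = 10) on chow, 13.6 ± 10.2 CPM (SD, n = 16) on WTD and 75.0 ± 64.4 CPM (SD, n = 16) on WTD with atorvastatin. Hence the WTD group was at 1.20% and the treated group at 6.62% of the chow mean. In the model of all genes, the log2 fold change between WTD and chow was -6.38 (SE 0.50), an 83.4-fold lower level, and that between WTD+Atorvastatin and chow was -3.92 (SE 0.45), a 15.1-fold lower level. Only Sult3a1 and Tnnt3 had a lower log2 fold change between WTD and chow among the 15574 tested genes. Of these, Sult3a1, a sulfotransferase, was at 49.4 to 191 CPM on chow and 0 to 7.14 CPM on WTD. Tnnt3, a troponin of skeletal muscle, owed its rank to 1 chow-fed mouse with 610 CPM, whereas no other mouse exceeded 2.23 CPM. The next genes in rank were Obox4-ps3, Mup16 and Rian, with log2 fold changes of -6.27, -6.23 and -6.08. All 3 were weakly expressed, with at most 4.71, 15.1 and 23.6 CPM in any chow-fed mouse. A1bg thus differed from these neighbours in rank by its high level on chow.

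Per length, A1bg ranked at place 107 of all tested genes by mean TPM on chow (1059 TPM), at place 5800 on WTD (16.4 TPM) and at place 1395 with atorvastatin (81.7 TPM). It can be compared with 36 tested genes for other secreted plasma proteins, such as albumin, transthyretin, fibrinogens, complement regulators and serpins. On chow, its TPM lay between those of Serpinf2 and Hrg, at place 22 of 37. In both WTD groups it was at place 37 of 37.

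Atorvastatin-treated mice had more A1bg than WTD-fed mice. The log2 fold change was 2.47 (SE 0.41, 95% confidence interval 1.66 to 3.27), a 5.52-fold higher level, with a Benjamini-Hochberg adjusted p of 7.4e-05 in the quasi-likelihood test of edgeR. The treated mice had no part in the choice of A1bg, but the WTD-fed mice did. Of the 16 treated mice, 14 were above the WTD median and 10 above the highest WTD-fed mouse. The other 6 lay within the WTD range, and 6 WTD-fed mice were below the lowest treated mouse. A permutation test of the mean log2 CPM (difference 2.36, 100000 permutations, two-sided) gave p = 2.0e-05, the smallest value it can give. Among the 10931 genes with a mean of at least 100 counts, the fold change of A1bg ranked at place 7 from the top, and among all 15574 tested genes at place 22. The order of the group levels was thus chow, WTD+Atorvastatin, WTD. The chow group did not overlap with the others, and the WTD groups overlapped but differed by these tests.

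A1bg differed widely between mice of the same group. The SD of its log2 CPM was 0.82 on chow, where the 242 genes with a mean within 1 log2 unit of its own had a median SD of 0.16 and all lay below A1bg. On WTD the SD was 1.25, against a median of 0.45 over 4063 genes of like level, of which 97.6% varied less. With atorvastatin it was 1.32, against a median of 0.20 over 4020 genes, of which 99.9% varied less. The highest and the lowest chow-fed mouse were both among the 9 libraries that missed weak genes, and without such libraries the chow range was 665 to 2151 CPM in 7 mice. The highest WTD-fed mouse, replicate 15, was among them as well. This library stood apart from the others on WTD, since its Alb level of 82592 CPM exceeded the remaining 15 mice, which had at most 54909 CPM. Without it, the log2 fold change between treated and WTD-fed mice was 2.69.

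Markers of liver cell types moved with the diet too. All 16 hepatocyte markers were lower on WTD than on chow at an adjusted p under 0.01, with 16.0% of all tested genes called lower and 17.5% called higher. The median log2 fold change was -0.82 for the markers and 0.03 over all tested genes. Their summed level ranged from 129388 to 182458 CPM on chow, from 61546 to 120974 CPM on WTD and from 72552 to 143808 CPM with atorvastatin. None of these markers was at 0 in any mouse. Of 12 tested macrophage markers, 9 rose on WTD, and their summed level was 333 to 552 CPM on chow, 1577 to 3211 CPM on WTD and 1192 to 2301 CPM with atorvastatin. The macrophage marker Itgam had too few counts to be tested, and Cd14 was without a count in at least 1 chow-fed mouse. In stellate cell and fibroblast markers, 7 of 10 rose, and their summed level was 353 to 650 CPM on chow, 1052 to 2584 CPM on WTD and 931 to 2407 CPM with atorvastatin. In bulk tissue, fewer hepatocytes and less RNA per hepatocyte cannot be told apart. When libraries were instead scaled to the hepatocyte markers, which moved the median of all genes to 0.86 between WTD and chow and to -0.37 between atorvastatin and WTD, the log2 fold change of A1bg was still -5.66 for WTD against chow. It rose with atorvastatin by 2.14 (SE 0.39, adjusted p = 6.5e-05 from edgeR). Albumin, itself among these 16 markers, differed between WTD and chow by -0.90 with TMM and by -0.08 with hepatocyte marker scaling. This scaling brings its own markers as a set close to 0, so albumin is no independent comparison for A1bg.

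The other plasma protein genes had smaller differences than A1bg. Of the 36 tested, 29 were lower and 4 higher on WTD than on chow, against 16.0% and 17.5% of all tested genes. The median log2 fold change of the 36 was -0.58. The lowest was that of Afm, which encodes the vitamin E-binding protein afamin, at -1.32 (SE 0.10). Afm ranged from 363 to 532 CPM on chow, from 141 to 278 CPM on WTD and from 171 to 336 CPM with atorvastatin. The highest was that of Serpina7, thyroxine-binding globulin, at 1.34 (SE 0.23). Between treated and WTD-fed mice, 17 of the 36 rose and 4 fell, against 4.84% and 2.26% of all tested genes, with a median of 0.27. With limma-voom 27 rose. Alb rose by 0.63 (SE 0.10, adjusted p = 1.8e-05 from edgeR), and Serpina7 fell by 0.77 on the log2 scale (adjusted p = 0.0056). The direction of most of these genes depended on the scaling. With hepatocyte marker scaling, 5 of the 36 were called lower and 19 higher on WTD, and with atorvastatin 1 was called higher and 14 lower. The median of the 36 was then 0.25 on WTD and -0.12 with atorvastatin, where that of all tested genes was 0.86 and -0.37. Relative to all genes, the list thus stayed lower on WTD and higher with atorvastatin. The shares of all tested genes called with this scaling are not given here.

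**Figure D2:**
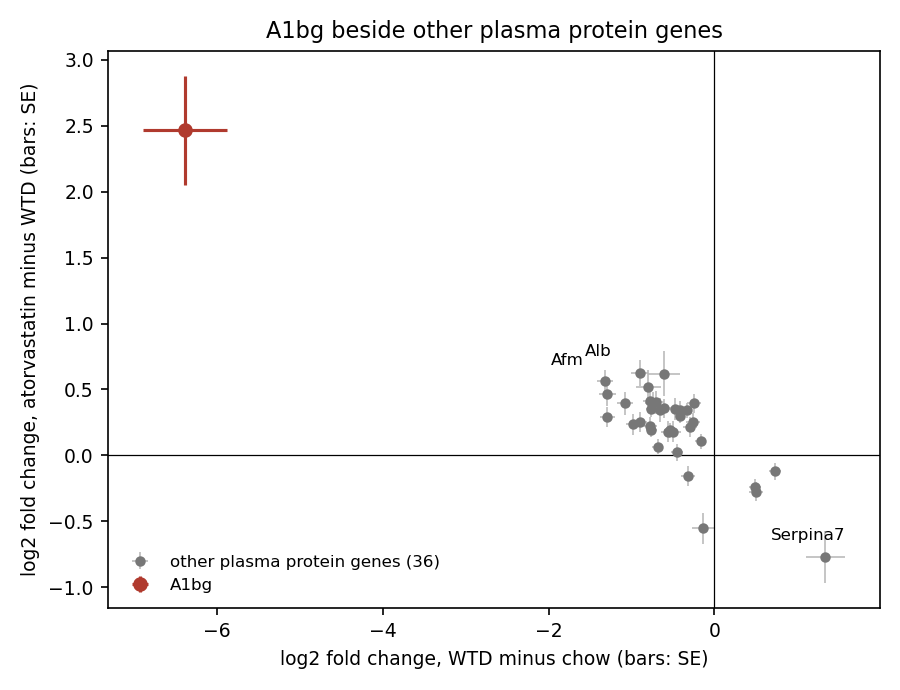
Log2 fold changes with standard errors for A1bg (red) and 36 other plasma protein genes (grey), between WTD and chow on the horizontal and between WTD+Atorvastatin and WTD on the vertical axis. Both axes use the WTD-fed mice. A1bg lies at -6.38 and 2.47, and the others lie between -1.32 and 1.34 on the horizontal axis.

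The nearest tested genes on chromosome 15 had smaller differences than A1bg. The nearest tested gene on the side of lower coordinates was Fam84b, 43081 bp away, with a log2 fold change of -0.16 (SE 0.12) between WTD and chow and of 0.18 (SE 0.11) between treated and WTD-fed mice, of which neither passed the test. On the other side it was Myc, 1062379 bp away, which encodes a transcription factor of cell growth and was higher on WTD by 0.81 (SE 0.20), with -0.03 (SE 0.17) between treated and WTD-fed mice.

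Genes of the female pattern were described next. This list of 25 genes, all tested, was written with earlier results of these data known and does not contain A1bg. On WTD, 20 were lower and 2 higher than on chow, against 16.0% and 17.5% of all tested genes, and 3 did not pass the test. The median log2 fold change was -1.65. Between treated and WTD-fed mice, 12 rose and 1 fell, against 4.84% and 2.26% of all tested genes. The median was 0.89 for the list and 0.0016 over all tested genes. With hepatocyte marker scaling, the list still had 14 genes lower and 3 higher on WTD, and 11 higher and 1 lower with atorvastatin. The list medians were then -0.91 and 0.56, where those of all tested genes were 0.86 and -0.37. The list is not set against shares of all tested genes called with this scaling. Many of its members belong to families of near-identical copies, such as Cyp3a41a, Cyp3a41b, Cyp3a44 and Cyp3a16, Sult3a1 and Sult3a2, or Cyp2b9 and Cyp2b13. Reads that fit several copies may have been set aside in the counting, so that single values are uncertain.

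The genes with the largest differences were metabolic enzymes. Cyp3a44, a steroid-hydroxylating cytochrome P450, had 12.8 CPM in the lowest, 48.6 CPM in the median and 74.9 CPM in the highest chow-fed mouse. On WTD these levels were 0, 1.29 and 7.61 CPM, and with atorvastatin 1.15, 14.2 and 89.8 CPM. Every WTD-fed mouse was below every chow-fed mouse, whereas 8 of 16 treated mice were within the chow range or above it. Its log2 fold change between treated and WTD-fed mice was 3.27 (SE 0.55, adjusted p = 7.3e-05 from edgeR). Sult2a1, which sulfates bile acids and steroids, had a median of 251 CPM on chow, 12.7 CPM on WTD and 142 CPM with atorvastatin, and rose in treated mice by 2.89 (SE 0.45, adjusted p = 3.9e-05). For Sult3a1 and Sult3a2, by contrast, all 16 treated mice were below the lowest chow-fed mouse. With hepatocyte marker scaling, these 2 genes differed by -6.54 (SE 0.75) and -5.09 (SE 0.83) between WTD and chow. Between treated and WTD-fed mice they differed by 1.82 (SE 0.65) and -0.54 (SE 0.74), and neither passed the threshold of 0.01 with this scaling. On the same scaling, Cyp3a44 differed by 2.94 (SE 0.53) and Sult2a1 by 2.56 (SE 0.40).

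Regulators and receptors of the list had smaller log2 fold changes. Prlr, the prolactin receptor, had 48.3 CPM in the lowest, 69.5 CPM in the median and 87.3 CPM in the highest chow-fed mouse. On WTD these levels were 16.8, 28.3 and 60.1 CPM, and with atorvastatin 25.6, 51.3 and 68.9 CPM. The log2 fold change was -1.27 (SE 0.17) between WTD and chow and 0.80 (SE 0.15, adjusted p = 0.00033 from edgeR) between treated and WTD-fed mice. Cux2, a repressor that is found in female liver, was lower on WTD by a log2 fold change of -1.40 (SE 0.36), and differed by 1.13 (SE 0.32, adjusted p = 0.014) between treated and WTD-fed mice, which did not pass the threshold of 0.01. A pair of genes went the other way. Ntrk2, a neurotrophin receptor, was higher on WTD by 1.37 (SE 0.15), and Atp6v0d2, a subunit of the vacuolar proton pump, by 0.51 (SE 0.16). In treated mice Atp6v0d2 fell by 0.61 on the log2 scale (adjusted p = 0.0019 from edgeR). Ntrk2 did not fall with it. Its level was above the WTD median in all 16 treated mice and above the highest WTD-fed mouse in 8.

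**Figure D3:**
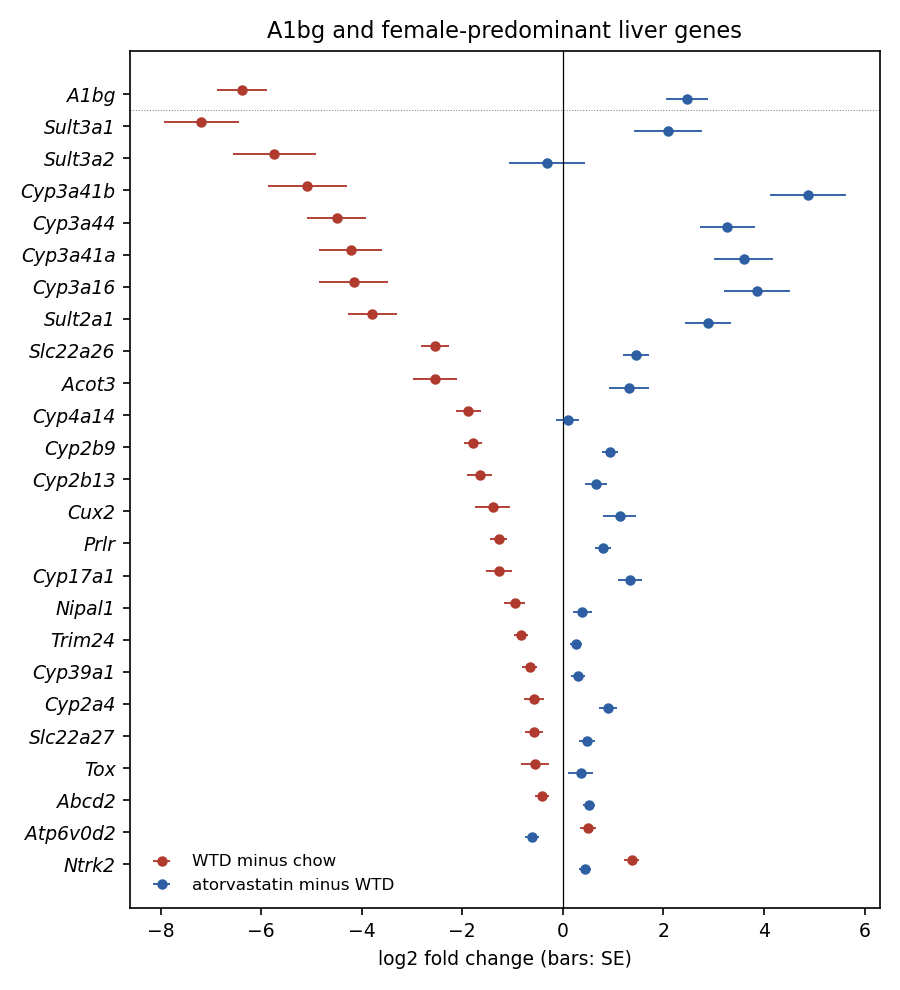
Log2 fold changes with standard errors for A1bg (top row) and 24 of the 25 female-predominant liver genes, in red between WTD and chow and in blue between WTD+Atorvastatin and WTD, sorted by the red values. Both comparisons use the WTD-fed mice. Most red points are below 0 and most blue points above 0, with Ntrk2 and Atp6v0d2 at the bottom as the genes that were higher on WTD.

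The list of male-predominant genes did not mirror this. Of its 25 genes 19 were tested. On WTD 8 were lower and 1 higher than on chow, against 16.0% and 17.5% of all tested genes. The median log2 fold change was -0.64 for the list and 0.03 over all tested genes. With hepatocyte marker scaling these medians were 0.23 and 0.86, so that the list stayed below all genes. With limma-voom, 3 were higher on WTD. In treated mice, 4 rose and 2 fell, against 4.84% and 2.26% of all tested genes. Slco1a1, an organic anion transporter, had a median of 11.0 CPM on chow and 0.41 CPM on WTD. The groups overlapped, however, and no WTD-fed mouse was below the lowest chow-fed mouse. Mup20, a major urinary protein that acts as a male pheromone, rose on WTD from a median of 74.0 CPM to 524 CPM and was at 94.6 CPM with atorvastatin, a fall of 1.65 on the log2 scale (SE 0.35, adjusted p = 0.00097 from edgeR).

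Among 15 genes of growth hormone signalling and liver transcription factors, 7 were lower and 1 higher on WTD than on chow, and 3 rose in treated mice, against 16.0%, 17.5% and 4.84% of all tested genes. The number that rose in treated mice was 7 with limma-voom and 5 without the libraries that missed weak genes. With hepatocyte marker scaling these counts became 1 lower and 10 higher on WTD, and 0 higher and 4 lower in treated mice. This scaling moved the median of all tested genes to 0.86 on WTD and to -0.37 in treated mice. The medians of the list were 0.51 and -0.22, so these counts follow the moved scale. Shares of all tested genes called with it are not given here. Ghr, the growth hormone receptor, had medians of 543 CPM on chow, 273 CPM on WTD and 391 CPM with atorvastatin, with log2 fold changes of -0.94 (SE 0.10) and 0.49 (SE 0.09). Igfals is a growth hormone target whose protein belongs to the complexes that hold insulin-like growth factors in plasma. It had a log2 fold change of -1.46 (SE 0.15) on WTD, and 0.47 (SE 0.13, adjusted p = 0.012 from edgeR) in treated mice. Jak2 was the gene that was higher on WTD, by 0.57 (SE 0.12). Stat5b was lower by 0.36 on the log2 scale (SE 0.08), and Onecut1, which encodes HNF6, was at a mean of 0.97 CPM on chow, 0.54 CPM on WTD and 1.13 CPM with atorvastatin without a change that passed the test.

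To see which genes followed A1bg from mouse to mouse, the comparison between diets was taken out. Each gene was tested for a slope on the log2 CPM of A1bg, centred within each group, over all 42 mice. Of 15573 genes tested, none had an adjusted p under 0.01 in either direction in edgeR's quasi-likelihood test (0% called), and the smallest adjusted p was 0.057. At an unadjusted p under 0.05 there were 1416 genes (9.09%), of which 891 had a positive and 525 a negative slope. With limma-voom and sample quality weights, 55 genes were called with a positive and 5 with a negative slope. Covariation with A1bg within groups is therefore given for ranks and lists, and no single gene passed the main test.

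The genes most like A1bg by the mean of the 3 Spearman correlations within groups (10, 16 and 16 mice), among genes with a mean of at least 100 counts, were Recql5, Pcbd1, C4a, Mvd, Prlr, H2-K2, Mrpl22, Bhmt, Pnpla3 and Scly, with means from 0.66 to 0.63. These are the highest of 10931 genes and were ranked on the same mice. Recql5, a DNA helicase, had a rho of 0.69 on chow, 0.55 on WTD and 0.74 with atorvastatin. Pcbd1, an enzyme that recycles tetrahydrobiopterin, had a rho of 0.90, 0.45 and 0.60. Its level was 259 to 336 CPM on chow, 149 to 262 CPM on WTD and 161 to 286 CPM with atorvastatin. Mvd, an enzyme of cholesterol biosynthesis, had a rho of 0.64, 0.51 and 0.77, with median levels of 94.4, 10.0 and 24.4 CPM. Prlr was the gene of the female-predominant list with the highest mean, with a rho of 0.79 on chow, 0.61 on WTD and 0.51 with atorvastatin. At the other end stood Pbrm1, Rnf2, Plaa, Tmem170 and Slc44a2, with means from -0.64 to -0.57. Over all 42 mice, where the distance between groups enters, Apol9a (rho 0.91), Stat2 (0.91), Tmem86b (0.90), Josd2 (0.90) and Sema4g (0.89) ran closest to A1bg, and Rad51b (-0.89), Tlr13 (-0.88) and Pdgfra (-0.87) ran opposite. Apol9a and Stat2 are interferon-related genes.

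**Figure D4:**
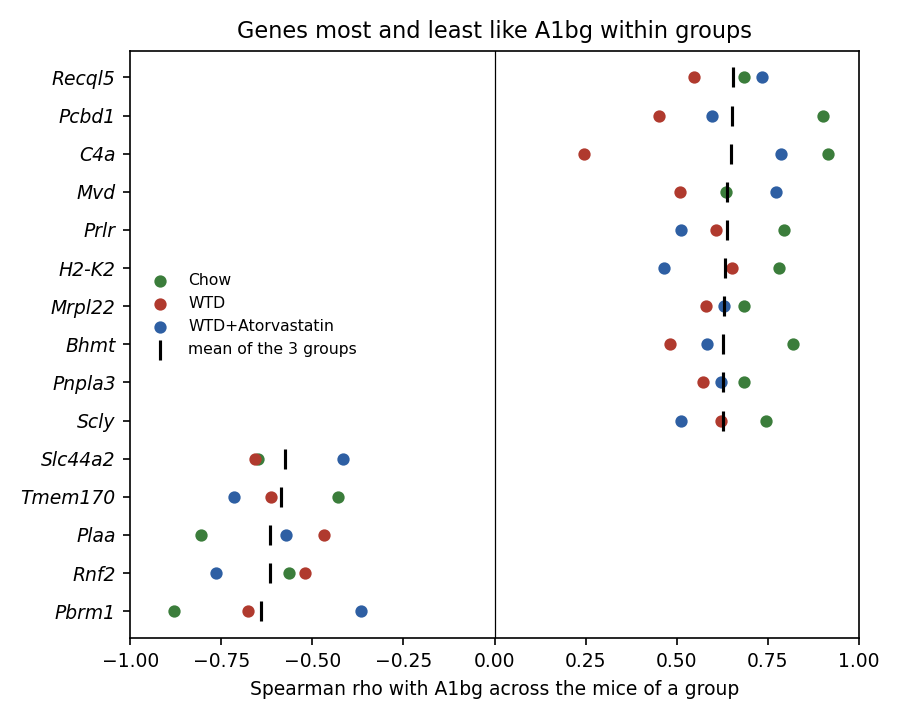
Spearman rho with A1bg across the mice of each group for the 10 genes with the highest and the 5 with the lowest mean of the 3 groups (black bars). Points are the groups, with 10 chow-fed, 16 WTD-fed and 16 treated mice. The bars lie between 0.63 and 0.66 for the upper genes, while the 3 groups differ widely for C4a and Pcbd1.

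As a list, the female-predominant genes ran with A1bg within groups. The mean within-group rho was positive for 23 of the 25, with a median of 0.38 and a median of -0.0059 over all tested genes. In edgeR's test, 19 of the 25 had an unadjusted slope p under 0.05, against 9.09% of all tested genes. Since the list holds near-identical copies, its members are not independent of each other. The largest rhos after Prlr were those of Cyp3a41b (mean 0.59) and Cyp3a41a (0.50). Atp6v0d2 (-0.31) and Cyp39a1 (-0.08) were the exceptions. For the male-predominant list the median was -0.11, with 7 of 19 positive, for the growth hormone list 0.08, for the plasma proteins 0.02, for hepatocyte markers 0.13 and for stellate cell and fibroblast markers -0.23.

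The mean z-score of the female-predominant list within a group was then set against the log2 CPM of A1bg of each mouse. This was 1 of 8 measures in 3 groups, and p values were adjusted over these 24 relations. In the WTD group, Pearson's r was 0.76 (adjusted permutation p = 0.033, n = 16) and Spearman's rho was 0.83 (adjusted permutation p = 0.0029). Without the 2 mice farthest from the median score, r was 0.66. Without replicate 15, which had the highest A1bg level and the highest score, r was 0.77 (adjusted permutation p = 0.018) and rho was 0.73 (adjusted permutation p = 0.070). Without the libraries that missed weak genes, r was 0.79 in 11 mice (adjusted permutation p = 0.10) and rho was 0.77 (adjusted permutation p = 0.19). In the chow group, r was 0.80 (adjusted permutation p = 0.038, n = 10) and rho 0.79 (adjusted permutation p = 0.11), and r fell to 0.53 without the 2 farthest mice, so that the relation rests in part on these. Without the libraries that missed weak genes, r was 0.50 in 7 chow-fed mice (adjusted permutation p = 0.97) and rho 0.32 (adjusted permutation p = 1). In treated mice, r was 0.34 (adjusted permutation p = 0.61, n = 16) and rho 0.33 (adjusted permutation p = 0.57), which did not pass the test. Whether the groups differ in this relation was not tested.

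**Figure D5:**
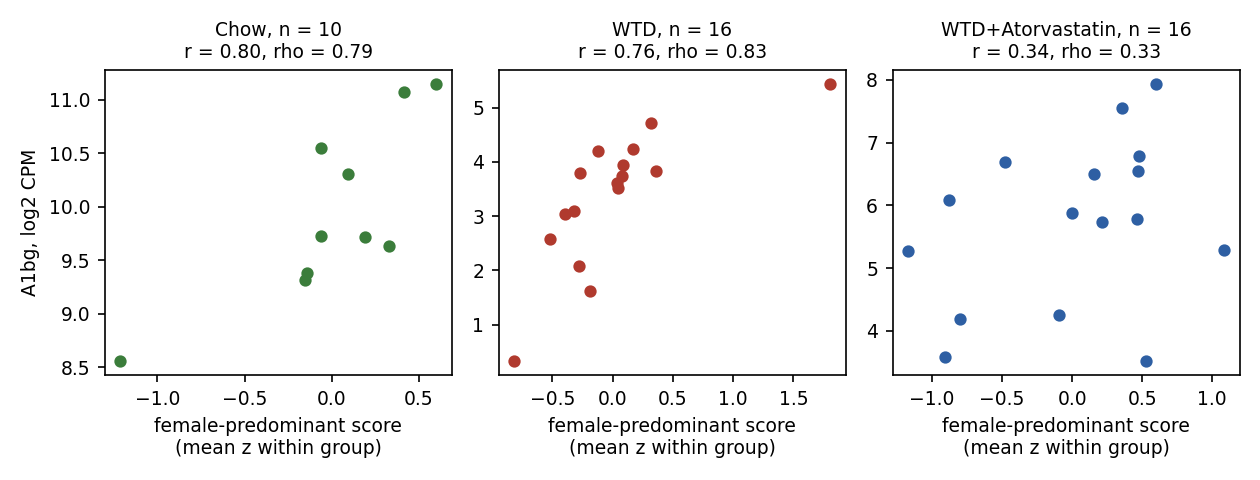
A1bg in log2 CPM against the mean z-score of the 25 female-predominant genes, with a panel for each diet group and a point for each mouse. In the chow panel 1 mouse lies far to the lower left, in the WTD panel the points rise from lower left to upper right, and in the WTD+Atorvastatin panel (r = 0.34) they scatter.

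None of the other 7 measures had an adjusted p under 0.05 in any group. In the WTD group, A1bg and the hepatocyte marker score had a rho of 0.59 (permutation p = 0.017, adjusted 0.14), and A1bg and Alb a rho of 0.39 (adjusted permutation p = 0.56). The total count and the share of weak genes without a count had a rho with A1bg between -0.22 and 0.34 in the 3 groups, and the macrophage marker score one between -0.39 and 0.20.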

How the data were processed

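The authors trimmed reads with Trimmomatic, aligned them to GRCm38 with STAR 2.5 and counted read pairs per gene with HTSeq 0.6.1p1 (versions per the labels), and deposited raw counts of 54446 genes, without normalization. These counts were used as deposited. Symbols and lengths came from GENCODE vM21 (54409 identifiers matched). With edgeR 4.0.16 in R 4.3.3, genes were filtered by filterByExpr (minimum count 10), scaled by TMM and fitted with robust quasi-likelihood over all 42 mice in 3 groups, and an adjusted p under 0.01 was called, the study's threshold. Log2 CPM used a prior count of 2. A1bg, the gene lists and the tests were chosen with earlier results of these data known. Named genes were A1bg, the 10 highest and 5 lowest mean within-group rhos, the 5 highest and 3 lowest over all mice, the 3 smallest p per list, the members of 4 lists, the neighbours on the chromosome and the 3 next in rank on each side. Some genes that this rule takes are not reported here. Tests were checked on simulated data. Alternatives were DESeq2 1.42.0, limma 3.58.1 (voom), RLE, upper-quartile and hepatocyte marker scaling, no filter, fewer samples and leaving out each mouse. Hepatocyte marker scaling of the lists and leaving out single mice in the relations and in the gaps between groups were added after the data were seen. P values treat mice as independent, and cages are not given.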

Additional observations from a re-analysis of the deposited data

Results flagged for a closer look

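In the chow group, 65 of the genes named in the text or on a plot were searched for a mouse far from the others. By Dixon's test of the gap over the range, 11 had one. About 1 in 20 would be flagged if levels were normally distributed. The search used CPM without a logarithm, and all genes share the same chow libraries, so the excess over this rate was not tested. A1bg was not among them. Tnnt3 had 610 CPM in its highest chow-fed mouse and 1.87 CPM in the next. Mup16 had 15.1 CPM in its highest chow-fed mouse and 8.62 CPM in the next, and Rad51b 61.9 and 32.3 CPM. The highest and next chow-fed mice had 59.1 and 31.0 CPM of Mrpl22, 156 and 117 CPM of Tmem86b, 4.86 and 2.44 CPM of Tlr13, 54.5 and 40.9 CPM of Cyp39a1 and 241 and 131 CPM of Cyp3a16. Pbrm1 had 17.3 CPM in its lowest chow-fed mouse and 32.5 CPM in the next. For Scly the lowest and next mice had 128 and 161 CPM, and for Trim24, a nuclear receptor coregulator of the female-predominant list, 39.5 and 89.3 CPM. Groups of 16 mice were not searched in this way.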

How the results depend on the processing

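A1bg kept its direction in every fit run. Its log2 fold change between WTD and chow ranged from -7.20 (limma-voom) to -5.66 (hepatocyte marker scaling) over 8 alternatives and from -6.61 to -6.21 when each mouse was left out. Between treated and WTD-fed mice it ranged from 2.14 to 2.94 over 10 alternatives (adjusted p from 9.5e-08 to 0.00028) and from 2.23 to 2.69 when each mouse was left out (adjusted p from 6.7e-06 to 0.00019), and between treated and chow-fed mice from -4.26 to -3.52 and from -4.15 to -3.75. The number of genes covarying with A1bg moved most. It was 12 positive and 34 negative without a filter and 55 positive and 5 negative with limma-voom, and 0 with the other settings run. Of the female-predominant genes, 1 instead of 2 was called higher on WTD without a filter and without the 9 libraries that missed weak genes. The relation of A1bg to the female-predominant score on WTD lost its adjusted significance without these libraries (r 0.79, rho 0.77), and without WTD replicate 15 by Spearman's rho (0.73) but not by Pearson's r (0.77). On chow, Pearson's r fell from 0.80 to 0.50 without these libraries and lost its adjusted significance. The cause was not tested. No paired analysis was possible because replicate numbers only name mice and no number pairs mice across groups. Weakly expressed genes are limited by the libraries that missed them.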
